A study of Mus musculus with 8 samples.

Results

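The cytosolic ribosomal proteins are the protein components of the ribosome that reads messenger RNA in the cytoplasm. Their genes were taken by symbol from probe sets that carry a single gene symbol: Rpl or Rps followed by a digit, or Rplp followed by a digit, without the S6 kinase genes that begin with Rps6k. The rule found 50 of 18193 measured genes. Of these, 42 are standard ribosomal protein genes, with 20 of the large subunit, 2 of the stalk (Rplp0 and Rplp2) and 20 of the small subunit. The other 8 share only the form of the name or are gene copies: Rps27l, Rpl22l1, Rpl7l1, Rps4l, Rpl39l and Rpl3l are paralogs, Rps15a-ps6 is a pseudogene, and Rps19bp1 encodes a protein that binds Rps19. A further 110 probe sets list a symbol of this form together with other symbols and were not used, so 42 of 76 listed standard genes could be followed.

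Messenger RNA was measured on 8 Affymetrix arrays, 1 per mouse kidney, in cells that carried the green fluorescent reporter and were collected by flow sorting. All mice were FSP1-eGFP transgenics on C57BL/6, labelled male and 6 months old; the reporter follows the promoter of Fsp1 (S100a4), so the sort takes any cell type in which that promoter is active. The 5 ischemic samples came from kidneys taken 3 days after surgery in which both vessels of the left kidney, artery and vein, were held shut by a clamp for 45 minutes, in mice given buprenorphine after surgery. The 3 normal samples came from kidneys named normal in the titles, sham in the source names and non-ischemic controls in the group field, and the labels do not say whether they had an operation. The p-values measure the spread between these samples, and 8 arrays limit the precision.

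Each ribosome holds a single copy of nearly every ribosomal protein, so cells make these proteins in balanced amounts, and their messenger RNAs are among the most abundant in most cells. The large subunit forms the peptide bond, the small subunit decodes the message, and the acidic stalk recruits the factors that drive translation. Many of these messages begin with a cytosine followed by a run of pyrimidines, the 5′ terminal oligopyrimidine (TOP) motif, through which mTOR signalling and Larp1 control their translation. A microarray measures the amount of message, not its translation.

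To show the start-site sequence that the family is known for, 30-base windows around annotated starts are given from RefSeq (assembly GRCm38.p6), 15 bases before the start and 15 from it on, read on the gene's strand, with capitals marking 3 pyrimidine motifs (the letters CTTTC, the letters CTTTT and the letters CTCTT) and overlapping matches joined.
Rps26, chr10:128626492-128626521, minus strand: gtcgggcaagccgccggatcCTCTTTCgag
Rplp2, chr7:141447636-141447665, plus strand: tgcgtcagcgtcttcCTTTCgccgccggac
Rpl7a, chr2:26910792-26910821, plus strand: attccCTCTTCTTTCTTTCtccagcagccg
Rps10, chr17:27635230-27635259, minus strand: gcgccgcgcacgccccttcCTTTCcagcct
Rps18, chr17:33955651-33955680, minus strand: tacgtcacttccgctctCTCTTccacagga
Rpl38, chr11:114668565-114668594, plus strand: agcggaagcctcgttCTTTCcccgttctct
Rps6, chr4:86857353-86857382, minus strand: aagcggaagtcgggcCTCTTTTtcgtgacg
The 5 genes from Rps26 to Rps18 are among those with the clearest positive differences or group separation below. Of the 10 genes whose groups did not overlap after normalization, 4 held a motif in the printed window and 6 (Rpl19, Rpl10a, Rpl37a, Rpl22, Rps7 and Rps15) did not. The share of all standard genes with a motif in this 30-base window is not given here. The 4 of 10 can therefore not be read as a result about those genes. Rpl38 and Rps6 are shown beside them because they carry the same letters and had differences near 0 or below it. The starts of Rpl19 and Rplp0, which also had clear positive differences, held none of these letters in the printed window:
Rpl19, chr11:98026695-98026724, plus strand: tgaccaaacgccctcactgcgcatgtgcgc
Rplp0, chr5:115559452-115559481, plus strand: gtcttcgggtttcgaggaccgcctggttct
Of the 42 standard genes, 37 had a promoter entry, with 43 windows. From 20 bases before to 30 after the start, 19 of the 43 windows (44.2%) held at least 1 of these motifs on the gene's strand, against 16% of all 32851 promoter windows in the table. On the opposite strand the shares were 11.6% and 16.2%. CCGGAAG, the core of the site bound by ETS-family factors such as Gabpa, was searched on both strands over 300 bases around the start and occurred in 41.9% of the windows of these genes and 8.86% of all windows. The 3 pyrimidine motifs overlap one another in runs, and a match is only a description of the letters.

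Values are deposited probe set intensities taken as log2(intensity + 16), on which the deposited floor near 1 becomes 4.09 and the change of a dim gene is understated. They are given after quantile normalization, which makes the distribution of values the same on every array, and also without it. Where a gene had several probe sets, the one brightest on average was used. Levels of different genes come from different probe sets, so single genes were not compared by amount of message. The signal of a probe set is used to say how bright it was. It also enters sums and medians over sets of genes, which were compared between the groups. Of the 50 genes, 45 had a signal above the median of all genes and 37 were above the 90th percentile. At the other end, 5 lay within 1 log2 unit of the floor: Rps16, Rpl37, Rpl3l, Rpl39l and Rps4l. Rps16 and Rpl37 encode core ribosomal proteins, so their probe sets, at 4.29 and 4.28, gave no usable measure of those messages.

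The labels and the sample type were checked before the groups were compared. Array Ischemic 1 stood apart over all genes. Its correlations with the rest had a median of 0.75, against 0.85 to 0.91 for the other 7 arrays. Over the 50 ribosomal protein genes it was 0.98, inside the range of 0.98 to 0.99 of all arrays. These genes span signals from 4.28 to 12.74, so that correlation cannot show whether the array was typical for them. Ischemic 1 had their highest normalized median (11.32) and their highest share of summed intensity (3.77%). As deposited, Ischemic 3 had the highest median (11.38). Xist, a transcript of the inactive X chromosome, was high in Ischemic 1, Ischemic 2 and Normal 1 (9.28 to 11.15, as deposited). It was 4.46 to 5.02 in the other 5, although all mice are labelled male. The Y-linked genes Kdm5d and Eif2s3y were lowest in Ischemic 1 (6.66 and 5.91) and Normal 1 (6.33 and 5.82). Elsewhere, Ischemic 2 included, they read 7.65 to 9.48 and 7.65 to 8.89. The main counts are also given without the 3 arrays with high Xist. S100a4, the gene of the reporter promoter, was bright on every array (11.30 to 12.22) and its difference of 0.37 ± 0.25 (SE) had an adjusted p of 0.89 in limma.

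Markers of other cell types also differed between the groups. Of the summed intensity ranges given here, only those of the proximal tubule and distal nephron lists did not overlap. As mean log2 levels, the macrophage and monocyte list did not overlap either. It read 9.55 to 10.35 in the ischemic and 8.94 to 9.15 in the normal samples. All 12 proximal tubule markers read lower in the ischemic samples (median difference -3.08, summed intensity 2536 to 5258 against 12561 to 27302), as did all 12 distal nephron markers (median -1.80, 803 to 1597 against 6053 to 7178). All 15 macrophage and monocyte markers read higher (median 0.72, 18110 to 31470 against 14005 to 18951), as did all 9 cell division genes (median 1.01, 1667 to 4504 against 1206 to 2171). Of 8 endothelial markers 7 read lower (median -1.12, with mean log2 levels of 6.60 to 9.80 against 8.06 to 9.51). All 5 B cell markers read higher on average (median 0.81, 169 to 2731 against 232 to 569). The B cell genes Pax5 and Cd79a were highest in Ischemic 1, Ischemic 2 and Normal 1, the arrays with high Xist. Pax5 read 9.25, 8.11 and 6.90 there and 4.90 to 5.31 elsewhere. Of 12 fibroblast markers 10 read higher (median 0.44, 4084 to 9697 against 2606 to 7313), and the lowest of them, Lum, was near the floor. No marker in these lists passed the adjusted threshold of 0.05. In sorted bulk samples a change in the share of a cell type and a change in message per cell cannot be told apart, and the part of these shifts in the ribosomal protein values was not tested.

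The main comparison asks whether messages for ribosomal proteins differed in reporter-positive cells between injured and normal kidneys. No ribosomal protein gene passed the test: 0 of 50 had a limma adjusted p under 0.05, where 0% of all 18193 genes did, and the lowest adjusted p was 0.66. On simulated data, with the changed genes drawn from all genes above the median signal, the same fit recovered 3.8% of 2-fold changes. The 35 members with a signal of 10 or more varied less within groups (median SD 0.16) than the 605 others (0.33), so that rate is not theirs. A count of 0 past the threshold does not show that the messages were unchanged. At an unadjusted p under 0.05, 1 of the 50 was higher in the ischemic samples (Rps26) and 0 were lower, against 2.11% and 5.02% of all genes. The direction was uneven: 39 of the 50 differences were positive, with a median of 0.22, against 54.8% of all genes and a median of 0.041. In 10 of the 50 every ischemic array lay above every normal array, against 1.89% of all genes, and in 0 every ischemic array lay below, against 3.44%. Without the 3 arrays with high Xist the median was 0.20 with 40 positive, and 19 of the 50 had all ischemic arrays higher, against 10.5% of all genes. In 2 of the 50 they were then all lower, for which the share over all genes was not computed. Without Ischemic 1 alone the median was again 0.20, and 10 had all ischemic arrays higher, against 3.69% of all genes. Without Normal 3 the count was 18, against 6.22% of all genes.

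Without quantile normalization the count of positive differences was 38 of 50, against 50.4% of all genes, but the median difference was 0.072, against 0.0043 for all genes. Only 2 of the 50, Rpl37a and Rpl22, then had groups that did not overlap with the ischemic arrays higher, against 1.32% of all genes. In 0 of the 50 the ischemic arrays were all lower, against 4.41%. On that scale 0 of the 50 were higher and 0 lower at an unadjusted p under 0.05, against 1.18% and 6.15% of all genes, and 0 had an adjusted p under 0.05, against 0.011% of all genes (2 genes). The deposited values were also centred, array by array, on the ribosomal protein genes themselves, which holds the family near 0 by construction. Then 17 of the 50 differences were positive (9 of the large and 4 of the small subunit). The family's median moved from 0.072 to -0.079 and that of all genes from 0.0043 to -0.15.

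The family's middle value per array shows the same dependence on scale. Quantile normalized, the median of the 50 genes was 11.32, 11.18, 11.25, 11.14 and 11.15 in Ischemic 1 to 5 and 10.87, 10.72 and 11.05 in Normal 1 to 3. The groups did not overlap, with means of 11.21 ± 0.08 (SD, n = 5) and 10.88 ± 0.16 (SD, n = 3). As deposited, the medians were 11.18, 11.09, 11.38, 10.99 and 11.16 against 11.04, 10.94 and 11.04, and Ischemic 4 lay inside the normal range. The 50 genes together made up 3.05% to 3.77% of the summed intensity of all genes in the ischemic arrays and 2.52% to 2.74% in the normal arrays, a share that a scale factor per array does not change. It did not overlap between the groups.

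**Figure D1:**
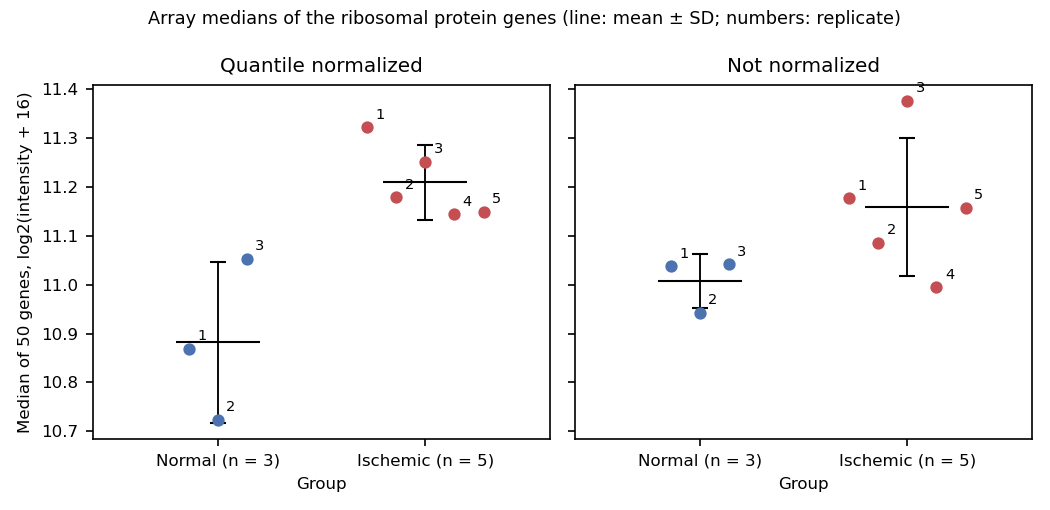
Median of the 50 ribosomal protein genes on each array, as log2(intensity + 16), by group; points are arrays with their replicate numbers, and lines give the mean ± SD. The 5 ischemic arrays lie between 11.14 and 11.32, above the 3 normal arrays, after quantile normalization (left), and overlap them as deposited (right).

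Most of these genes are bright, and on the deposited scale most other genes with a signal of 8 or more read lower in the ischemic samples. As deposited, the other genes with a signal of 8 to 10 had a median difference of -0.20, with 33.3% positive. Those under 8 had 0.035, with 54.2% positive, and those at 12 or above had -0.031, with 48.6% positive. Among genes with a mean signal of 10 or more, the 35 ribosomal protein genes had a median difference of 0.24 after normalization, with 31 positive, and the 605 other genes a median of 0.03. As deposited, the medians were 0.07, with 30 positive, and -0.16, with 32.1% of the others positive. The medians of the 2 sets thus lay 0.22 apart on the normalized scale and 0.23 apart on the deposited scale. The sets are not matched in brightness: 19 of the 35 ribosomal protein genes and 140 of the 605 others had a signal of 11 to 12, and 8 and 35 had one of 12 or above. Within the ranges 10 to 11, 11 to 12 and 12 or above, the distances were 0.37, 0.19 and 0.018 normalized and 0.39, 0.18 and 0.038 as deposited.

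A related distance was read on each array as the median of the 35 bright ribosomal protein genes minus the median of the 605 other bright genes, a measure added after the values above had been seen. Normalized, it was 1.10, 0.95, 0.92, 0.88 and 0.90 in Ischemic 1 to 5 and 0.83, 0.57 and 0.73 in Normal 1 to 3. As deposited, it was 1.31, 1.02, 0.97, 0.91 and 0.89 against 0.72, 0.49 and 0.69. On both scales every ischemic array lay above every normal array. The group means were 0.95 ± 0.09 and 0.71 ± 0.13 normalized, and 1.02 ± 0.17 and 0.64 ± 0.13 as deposited (SD, n = 5 and n = 3). The group difference in this measure was thus 0.24 normalized and 0.38 as deposited. The tubule, macrophage and cell division markers given above also differed between the groups. They were not compared with this measure array by array, and their part in it was not tested.

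**Figure D2:**
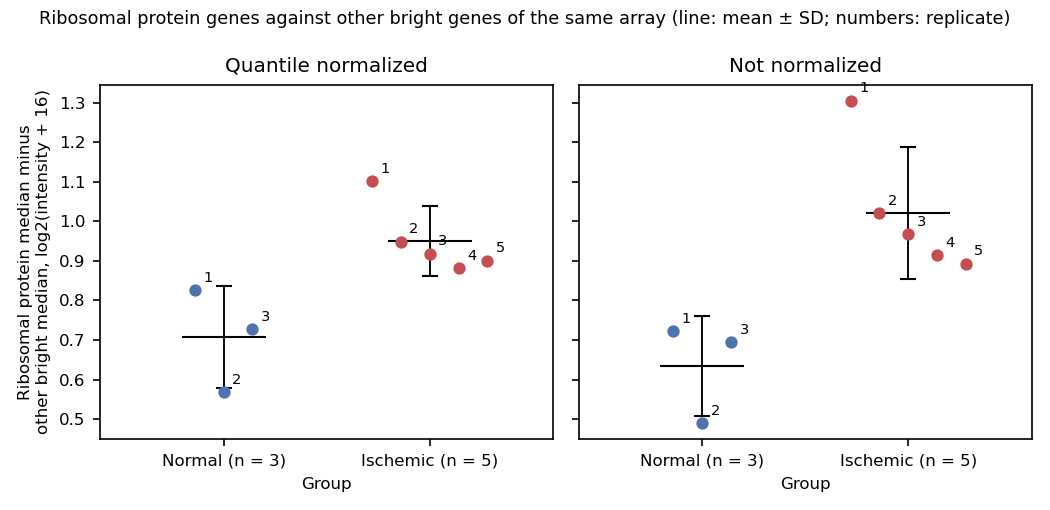
Median of the 35 bright ribosomal protein genes minus the median of 605 other bright genes of the same array, on the log2(intensity + 16) scale, with points for arrays and lines for the mean ± SD. The ischemic arrays (0.88 to 1.10 normalized, 0.89 to 1.31 as deposited) all lie above the normal arrays (0.57 to 0.83 and 0.49 to 0.72).

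Among the family's genes with a signal of 10 or more, the median difference was smallest in the brightest range. The 8 genes with a signal from 10 to 11 had a median difference of 0.40 (8 positive), the 19 from 11 to 12 had 0.25 (18 positive), and the 8 at 12 or above had 0.017 (5 positive). Other genes in these ranges had medians of 0.025, 0.060 and -0.0005. The brightest ribosomal protein genes, Rpl13a, Rps29 and Rpl35, differed between the groups by less than the SE. The 12 genes with a signal under 8 had a median of -0.0021 with 6 positive. The spread between arrays of a group was also small: the median within-group SD was 0.16 for the 35 bright ribosomal protein genes and 0.33 for the 605 other bright genes. Rpl38, Rps14 and Rpl13a were the steadiest, at 0.04, 0.05 and 0.07.

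**Figure D3:**
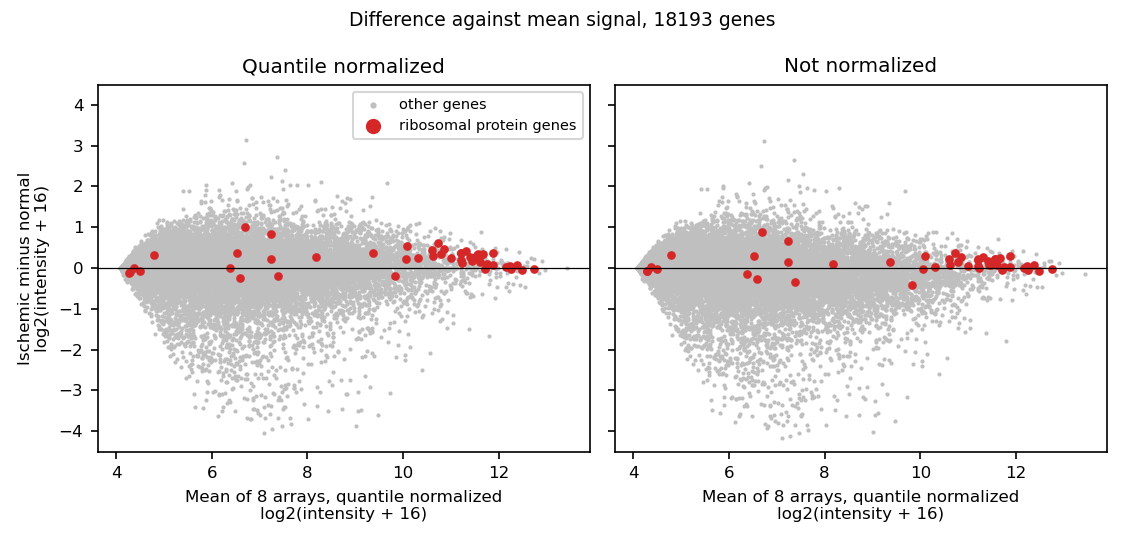
Ischemic minus normal difference of each of 18193 genes against its mean signal over the 8 arrays, both as log2(intensity + 16), with the 50 ribosomal protein genes in red, normalized (left) and as deposited (right). From a signal of 10 up, the red points lie mostly above 0, with 31 of 35 positive on the left and 30 of 35 on the right, and the other bright genes on the right lie mostly below it.

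The stalk proteins are the ones that contact elongation factors. Rplp0, the base on which the stalk is built and a frequent reference gene, read 10.83, 10.72, 11.32, 10.73 and 11.18 in Ischemic 1 to 5 and 10.46, 9.75 and 10.83 in Normal 1 to 3. Normal 2 was the lowest array by a wide step and Normal 3 lay among the ischemic arrays. The difference was 0.61 ± 0.29 (SE), a 1.53-fold ratio, with a limma adjusted p of 0.75, and it was 0.38 as deposited. Without Normal 2 it was 0.32. Rplp2, an acidic arm of the stalk, read 11.30, 11.36, 11.56, 11.17 and 11.34 against 10.82, 10.92 and 11.16. Its groups separated by the narrow step between Ischemic 4 and Normal 3, with a difference of 0.38 ± 0.20 (adjusted p 0.77), and 0.21 as deposited, where they overlapped.

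In the large subunit 15 of 20 differences were positive, with a median of 0.24, and 4 genes had groups that did not overlap. As deposited, 14 were positive with a median of 0.08. Rpl19, which reaches across to the small subunit, read 11.46, 11.36, 11.60, 11.43 and 11.50 in Ischemic 1 to 5 and 11.21, 10.72 and 11.21 in Normal 1 to 3. The 5 ischemic arrays lay close together, and Normal 2 was again the lowest. The difference was 0.42 ± 0.20 and 0.26 as deposited. Rpl10a, part of the mobile L1 stalk through which spent transfer RNA leaves, read 11.41, 11.31, 11.52, 11.33 and 11.19 against 11.11, 10.69 and 11.11, a difference of 0.38 ± 0.20. Its groups also came apart only after normalization.

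Rpl37a and Rpl22 were the members whose groups did not overlap on either scale. Rpl37a, a small zinc-binding protein, read 11.81, 11.67, 11.63, 11.72 and 11.63 in the ischemic arrays and 11.43, 11.19 and 11.45 in the normal arrays. The difference was 0.33 ± 0.18, and as deposited it was 0.23. Rpl22, an RNA-binding protein that is not needed for protein synthesis as such and is known for a role in T cell development, read 11.73, 11.59, 11.74, 11.65 and 11.63 against 11.34, 11.17 and 11.57. Ischemic 2 lay just above Normal 3. Its difference was 0.31 ± 0.18, and 0.22 as deposited. Neither passed the adjusted threshold, with limma adjusted p of 0.81 and 0.86.

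The largest positive differences of the subunit were those of Rpl7a, Rpl7 and Rpl19. Rpl7a, an RNA-binding protein, read 11.20, 10.75, 11.20, 10.999 and 10.996 against 10.52, 10.27 and 10.88. Normal 3 lay above Ischemic 2, so the groups overlapped in spite of a difference of 0.47 ± 0.22 (adjusted p 0.74, 0.27 as deposited). Rpl7 also overlapped, with Normal 3 (10.65) above Ischemic 2 (10.61) and Ischemic 4 (10.54), and gave 10.76 ± 0.20 (SD, n = 5) against 10.32 ± 0.33 (n = 3) and a difference of 0.44 ± 0.23. For both genes Normal 2 was the lowest array; without it the differences were 0.33 and 0.28.

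Other members of the large subunit gave smaller values. Rpl4 and Rpl6 differed by 0.35 ± 0.24 and 0.29 ± 0.19. Rpl11, which binds Mdm2 and links a stalled ribosome assembly to p53, differed by 0.16 ± 0.18, with 11.67 ± 0.10 against 11.51 ± 0.12. Rpl5, its partner in that role, was not measured by a probe set with a single symbol. Rpl13a, known for its release from the ribosome in inflammatory translational control, read 12.66 to 12.80 in the ischemic and 12.70 to 12.87 in the normal arrays, a difference of -0.02 ± 0.18. Rpl38, known for its part in the translation of Hox messages, read 12.23 ± 0.04 against 12.26 ± 0.03. Its difference was -0.03 ± 0.17, and it had the smallest within-group SD of the 50.

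The negative end of the large subunit held dim genes and bright genes with differences near 0. Rpl14 read 5.31, 6.19, 7.77, 6.14 and 7.10 against 7.71, 5.94 and 6.61, so arrays of both groups spanned nearly the same range. Its difference was -0.25 ± 0.60, and without the 3 arrays with high Xist it was 0.73. Rpl37 lay near the floor. Rpl12 was also dim, at 6.67 ± 0.51 against 6.30 ± 0.09, with a difference of 0.37 ± 0.31 carried by Ischemic 2 (7.33) and Ischemic 3 (7.10).

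In the small subunit 17 of 20 differences were positive on both scales, with a median of 0.18 normalized and 0.05 as deposited, and 5 genes had groups that did not overlap after normalization. Rps26, which lies at the exit of the message channel, was the only member with an unadjusted p under 0.05. It read 10.44, 9.89, 10.62, 10.35 and 10.17 in Ischemic 1 to 5 and 9.67, 9.75 and 9.84 in Normal 1 to 3. The normal arrays lay close together and Ischemic 2 came nearest to them. The difference was 0.54 ± 0.22, a 1.45-fold ratio, with a limma p of 0.040 and an adjusted p of 0.66. As deposited it was 0.30, and Ischemic 2 then lay at 9.76, below all 3 normal arrays (9.82 to 10.02).

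The other 4 small subunit genes with separate groups were Rps18, Rps10, Rps7 and Rps15. Rps18, in the head of the subunit, read 11.77, 11.98, 12.28, 12.02 and 11.98 against 11.71, 11.48 and 11.74, a difference of 0.36 ± 0.20. Rps10, at the head near the message entry, read 11.10, 11.05, 10.90, 10.87 and 10.74 against 10.69, 10.55 and 10.49, a difference of 0.35 ± 0.19. In both, the lowest ischemic array lay close above the highest normal array. Rps7, a further Mdm2-binding protein, read 10.92, 10.62, 10.78, 10.71 and 10.66 against 10.42, 10.41 and 10.47, a difference of 0.31 ± 0.18 that shrank to 0.07 as deposited. Rps15, which helps export the small subunit from the nucleus, read 11.64, 11.65, 11.44, 11.52 and 11.45 against 11.41, 11.27 and 11.38, a difference of 0.19 ± 0.18.

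Rps25 had the largest difference of the subunit and the widest spread. It is a protein needed for internal initiation by some messages, and it read 7.92, 7.55, 8.38, 6.37 and 7.57 in the ischemic arrays and 5.26, 7.48 and 7.42 in the normal arrays. A single low array, Normal 1, set the difference of 0.84 ± 0.61; without Normal 1 it was 0.11, and without the 3 arrays with high Xist it was -0.01. Rps27, a zinc-binding protein, gave 9.51 ± 0.31 against 9.14 ± 0.25, a difference of 0.37 ± 0.25, with the groups overlapping. Rps19, mutated in Diamond-Blackfan anemia, gave 11.51 ± 0.22 against 11.24 ± 0.28, a difference of 0.27 ± 0.23.

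The remaining named members of the small subunit differed by less than their spread. Rps29 gave 12.46 ± 0.12 against 12.51 ± 0.21. Rps6, the substrate of the S6 kinases and the usual readout of mTOR activity, was dim here, at 7.31 ± 0.45 against 7.51 ± 0.75. Normal 1 alone read 8.38, and without it the difference turned from -0.20 ± 0.39 to 0.24. Rps3, Rps14, Rps20, Rps28 and Rps4x had differences of 0.015, 0.048, 0.027, 0.019 and 0.084, each under its SE.

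**Figure D4:**
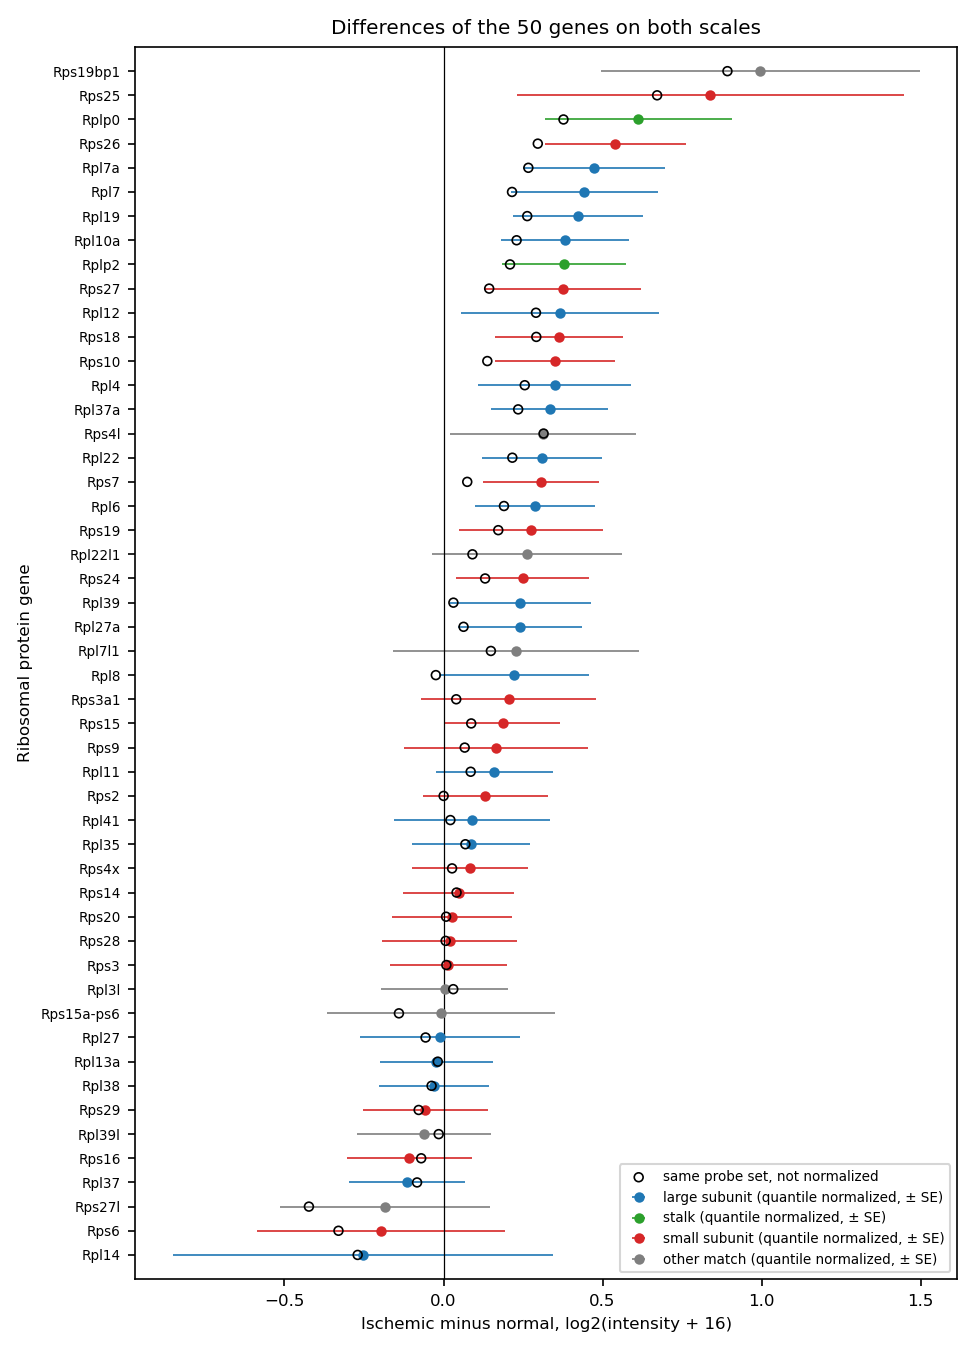
Ischemic minus normal difference of each of the 50 genes on the log2(intensity + 16) scale, with filled points and bars for the quantile normalized difference ± SE, coloured by role, and open points for the same probe set as deposited. Of the filled points 39 lie above 0 and of the open points 38; with arrays centred on the family itself, a scale not drawn here, 17 do.

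The 8 matches outside the standard set were mostly dim and varied widely. Rps19bp1, which encodes a nucleolar partner of Rps19 and SIRT1, had the largest difference of all 50. It read 6.81, 7.84, 7.65, 5.89 and 7.15 in the ischemic arrays and 5.24, 6.28 and 6.70 in the normal arrays. Ischemic 4 lay below 2 of the 3 normal arrays, and the difference of 1.00 ± 0.50 had an adjusted p of 0.78; without Normal 1 it was 0.58. Rps27l, a p53-induced paralog of Rps27, read 9.03, 9.62, 10.52, 9.71 and 9.94 against 9.80, 10.22 and 9.83, with a difference of -0.18 ± 0.33. Rpl22l1, the paralog of Rpl22, differed by 0.26 ± 0.30, and Rpl7l1 by 0.23 ± 0.39. Rps15a-ps6 differed by -0.01 ± 0.36. Rps4l, Rpl39l and Rpl3l, paralogs with narrow expression, lay within 1 log2 unit of the floor, with differences of 0.31, -0.06 and 0.0032.

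Different probe sets of a gene did not always match. The 50 genes have 105 probe sets with a single symbol, of which 83 had a positive difference. Among the 72 with a mean signal above 8, 62 were positive after normalization and 57 as deposited. Of 23 genes with more than 1 probe set, 8 had differences of both signs, and of 18 with more than 1 bright probe set, 14 had a single sign among those. Ribosomal protein genes have many near-identical processed copies, and 15 of the 50 chosen probe sets carry a suffix that marks possible or known sharing between genes (_x_at or _s_at), so a value can contain signal from such copies.

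For several genes the brightest probe set gave the smallest difference. The probe sets of Rpl13a at 12.74 and 12.04 differed by -0.02 and -0.03, while those at 9.38 and 9.07 differed by 0.51 and 0.67. The 9.38 probe set separated the groups, with an unadjusted p of 0.032. Rps9 gave 0.16, 0.50 and 0.82 from its brightest to its dimmest probe set, and Rpl41 gave 0.09 and 0.16 from bright and 0.98 and 0.85 from dim probe sets. Rps10 did not follow this order: its 5 bright probe sets lay between 0.27 and 0.42. Rps18 gave 0.36, 0.05 and 0.39 from its 3 bright probe sets, so even probe sets of like signal differed by more than the SE of 0.19 to 0.21.

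The bright members also varied within the groups in a shared way. After removing each group's mean and each array's mean shift, a single component held 56.3% of the remaining variance of the 35 bright genes. It set Ischemic 3 (1.21), Ischemic 5 (0.84) and Normal 3 (0.65) against the other 5 arrays (-0.87 to -0.29). At its positive end were Rps3a1, Rplp0, Rpl4, Rpl41, Rpl8 and Rpl7, and at its negative end Rps9, Rpl27, Rps28, Rps2 and Rps19. Rps3a1 read 11.76, 11.59 and 11.39 in those 3 arrays and 10.90 to 11.27 elsewhere. Rps9 read 11.21, 11.13 and 11.18 there and 11.07 to 12.10 elsewhere.

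Arrays of both groups stood at its positive end, as the group means had been removed. The same arrays were alike over all genes: Ischemic 5 and Normal 3 had a correlation of 0.98, the highest of any pair, and Ischemic 3 correlated with them at 0.96 and 0.95. They were also the arrays with the highest beta-actin 3′ minus 5′ control signal of their group, at 0.58, 0.30 and -0.0036, against -0.25 to 0.039 in the other ischemic and -0.19 and -0.11 in the other normal arrays. All 3 have low Xist. The Gapdh 3′ minus 5′ control was also highest in Ischemic 3 and Ischemic 5 among the ischemic arrays (2.71 and 2.54), but Normal 3 (2.18) lay below Normal 2 (2.45). Both controls had a higher mean in the ischemic than in the normal arrays, with overlapping ranges: 0.14 against -0.10 for beta-actin and 2.42 against 2.23 for Gapdh. The part of RNA quality, amplification or the animals in this component was not tested.

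**Figure D5:**
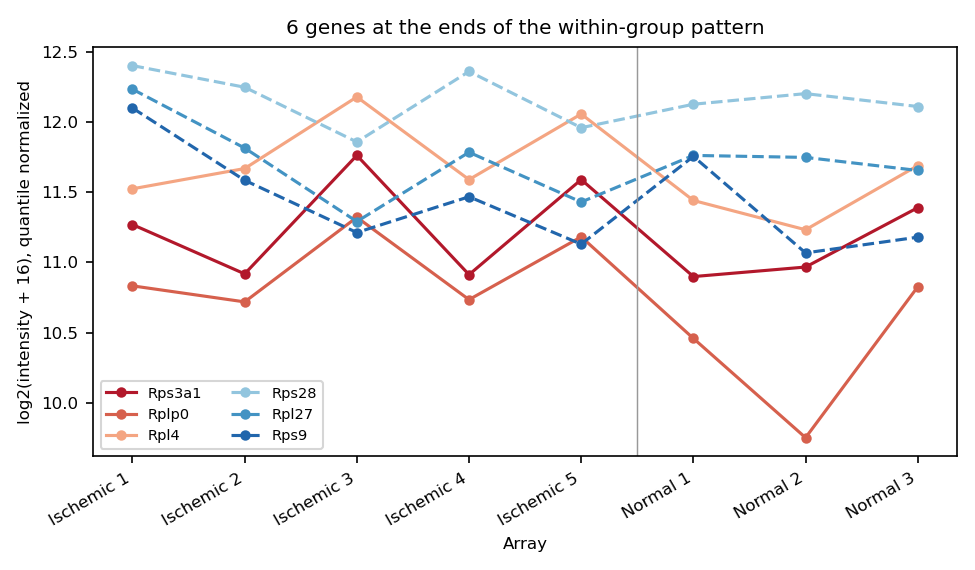
Quantile normalized log2(intensity + 16) of 3 genes from each end of the shared within-group component on the 8 arrays; lines join the values of a gene, and the arrays of a group have no order. Rps3a1, Rplp0 and Rpl4 are high and Rps28, Rpl27 and Rps9 low in Ischemic 3 and Ischemic 5, and Normal 3 has the highest Rps3a1, Rplp0 and Rpl4 of the normal arrays.

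Genes of the same pathway were counted in lists. The 2 ribosomal protein genes outside the symbol rule, Rpsa and Fau, differed by 0.24 ± 0.24 and 0.12 ± 0.19. Of 12 elongation factors and other TOP messages, 10 had positive differences, with a median of 0.17 (0.053 as deposited, and -0.098 with arrays centred on the ribosomal protein genes). The poly(A)-binding protein Pabpc1 and the histone chaperone Nap1l1 led them with 0.60 ± 0.25 and 0.57 ± 0.24, at adjusted p of 0.66 each, while the elongation factors Eef1a1 and Eef2 gave 0.06 ± 0.18 and 0.13 ± 0.19. Of 24 initiation factors 17 were positive with a median of 0.05, and as deposited 8 were, with a median of -0.13 (-0.28 with the centring). Eif3h, a subunit of the scaffold factor eIF3, gave 0.64 ± 0.24.

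Ribosome assembly genes had the larger single values. Of 46 such genes 36 were positive with a median of 0.27 (30 and 0.13 as deposited, 21 and -0.025 with the centring). Myc, the transcription factor that drives ribosome production, differed by 1.51 ± 0.49, with an adjusted p of 0.43. Bysl, a small subunit assembly factor, differed by 1.04 ± 0.45, and the nucleolar methyltransferase Fbl by 0.50 ± 0.23. The cell division genes given above also all read higher. Of 14 regulators of ribosomal protein transcription and TOP translation, 6 were positive, with a median of -0.065 (5 and -0.27 as deposited, 3 and -0.42 with the centring). Larp1, which binds the TOP cap, gave 0.77 ± 0.26 and the translation repressor Eif4ebp1 0.83 ± 0.29, while the S6 kinase gene Rps6kb2 gave -0.78 ± 0.33. No gene of these lists passed the adjusted threshold.

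The ribosomal proteins of mitochondria, encoded in the nucleus but used only in mitochondrial ribosomes, had mostly negative differences. Of 76 such genes 24 had positive and 52 negative differences, with a median of -0.17, and as deposited 16 were positive with a median of -0.33 (10 and -0.49 with the centring). At an unadjusted p under 0.05, 0 were higher and 3 lower, a share below the 5.02% of all genes that were lower: Mrpl1 at -1.02 ± 0.38, Mrpl28 at -0.88 ± 0.36 and Mrps6 at -1.06 ± 0.45. None passed the adjusted threshold, and the lowest adjusted p was 0.58. Markers of the mitochondria-rich tubule cells were also lower in the ischemic samples, and the part of these cells in this list was not tested. The difference between the cytosolic and mitochondrial sets was described by counts and not tested.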

How the data were processed

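The authors deposited linear probe set intensity values of 8 arrays; how they were background-corrected, summarised and scaled is not given in the sources used here. Per the labels' protocols, RNA was extracted with Qiagen miRNeasy, amplified by the NuGEN WT-Ovation Pico system and labelled with biotin. Groups came from the sample titles. Intensities were taken as log2(value + 16) and quantile normalized. The 34945 of 45101 probe sets that have 1 symbol in the platform annotation, without 64 controls, gave 18193 genes, each represented by its brightest probe set. All genes were fitted with limma 3.58.1 in R 4.3.3, adjusted by Benjamini-Hochberg at a threshold of 0.05, after testing on simulated data. With 200 changed genes in that simulation, drawn from all genes above the median signal, the fit recovered 3.8% of 2-fold and 48.4% of 4-fold changes. The largest difference among the members was 1.99-fold (Rps19bp1). The members and lists were chosen with earlier results of these data known, so family values carry no test. Named members were, per role, the 3 highest and 3 lowest differences, those with separate groups, the brightest and dimmest, the non-standard matches and 7 of known role, of which 6 were measured. Same-numbered arrays of the groups were not treated as pairs in the main fit. Alternatives were other scalings, pseudocounts, filters, probe set rules, variance models and left-out arrays.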

Additional observations from a re-analysis of the deposited data

How the results depend on the processing

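No ribosomal protein gene passed the adjusted threshold under any setting run. The family's median difference of 0.22 was 0.072 without quantile normalization, 0.087 with median-centred arrays and -0.079 with arrays centred on the family; leaving out 1 array gave 0.17 to 0.25, and 0.036 to 0.10 without normalization. Genes of all 18193 past the adjusted threshold numbered 0, but 2 without normalization, 170 centred on the family, 1 with a pseudocount of 1, 15 above the 40th percentile of brightness, 2 with the mean of probe sets, 31 with a variance trend and 5 with array weights; leaving out 1 array gave 0 to 113 (113 without Normal 3), and 0 to 141 without normalization. Members higher at an unadjusted p under 0.05 numbered 1, against 1297 of all genes in both directions. They numbered 0 without normalization, median-centred, family-centred, with a pseudocount of 1 or above the 40th percentile. With a pseudocount of 64 they were 12 (1291 of all genes in both directions), with the mean of probe sets 6 (1366) and without shared probe sets 4 (1268). With a trend they were 7 (1309) and with weights 3 (1148). Leaving out 1 array gave 0 to 3 (808 to 1714), and 0 to 1 without normalization (903 to 1699). Members with all ischemic arrays higher numbered 10 (background 1.89% of all genes). They were 2 without normalization (1.32%), 0 median-centred (1.35%), 0 family-centred (0.341%) and 11 without shared probe sets (1.87%). Leaving out 1 array gave 10 to 18 (18 without Normal 3, background 2.53% to 6.22%) and 2 to 6 without normalization (1.92% to 5.16%). Without the 3 arrays with high Xist they numbered 19 (background 10.5%), with only those arrays, an alternative chosen after seeing the data, 34 (34.9%), and the median differences were 0.20 and 0.19. Members with all ischemic arrays lower numbered 0, but 1 family-centred, 2 without high Xist, 9 with only high Xist, 1 without normalization or high Xist, and 0 to 1 without normalization and 1 array. With the family-centred values of the main probe sets, 1216 of all 18193 genes were lower in this way. For the settings with arrays left out that share was not computed, so their counts of lower members cannot be read as a result. Fewer arrays separate more genes by construction; other causes were not tested. With the replicate block the median was 0.22, 0 members passed and 1406 genes of all had an unadjusted p under 0.05 against 1297. Same-numbered arrays correlated at 0.16, -0.09 and 0.10, inside the range of -0.28 to 0.31 of differently numbered arrays. So few values cannot decide whether the numbers pair anything. Dropping normalization together with arrays was also chosen after seeing the data. The number of arrays limits precision, and probe sets near the floor measure little.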
